A study of Mus musculus with 12 samples.

Results

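The genes described here are 9 interferon-related genes, Ifitm1, Ifitm2, Ifitm3, Ifitm10, Bst2, Stat2, Irf9, Isg15 and Ifit3, out of the 25700 genes of a count table from sorted mouse Schwann cells. They were found in the table by the Ensembl identifiers that belong to these symbols, and all 9 were listed. Ifitm3 was chosen by its large rise in counts from the mSC gate to the nmSC gate, so its gate differences are given as a description without a test. The other 8 are its family members and genes of the same pathway. A filter on low counts left 18597 genes to be tested, among them 8 of the 9 genes; Ifitm1 did not pass.

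Sciatic nerves were taken at postnatal day 5 from mice of both sexes on the C57bl/6J background with the genotype P0Cre-/+: ReYFP Tg/+: βAct-DsRed Tg/+, which all groups share. The Cre transgene, whose promoter is active in the Schwann cell lineage, switches on eYFP in Schwann cells, the glia of peripheral nerves, and DsRed is made in every cell. After enzymatic dissociation, eYFP-positive cells were sorted by side scatter, a measure of granularity, into all Schwann cells (allSC), cells enriched for myelinating Schwann cells (mSC) and cells enriched for not-myelinating Schwann cells (nmSC). Each gate gave 4 numbered Smart-Seq2 libraries, with between 8180927 and 16918122 counted reads per library. Per the paper each sample came from 1 mouse, and the same number in different gates is read here as the same mouse. The gates are enrichments, and in bulk RNA fewer cells of a type and less RNA per cell cannot be told apart. All 7 markers of the labelled cell type passed the filter, and Sox10, the lineage's master transcription factor, had a mean of 267 CPM (read counts scaled to a common library total with TMM factors) in mSC and 266 CPM in nmSC.

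Interferons are secreted proteins that cells release when they sense viral nucleic acid. Type I interferons bind the Ifnar1 and Ifnar2 receptor, whose kinases Jak1 and Tyk2 phosphorylate Stat2, which joins Irf9 in a complex that enters the nucleus and binds a DNA element, the interferon-stimulated response element, in the promoters of interferon-stimulated genes. Interferon gamma acts through another receptor and induces, among others, Irf1 and families of large and immunity-related GTPases. The Ifitm proteins are small membrane proteins that hinder the fusion of viruses with cell membranes, with Ifitm3 acting mostly in endosomes. Bst2, called tetherin, holds budding virus particles at the cell surface, Isg15 is a ubiquitin-like protein that is attached to other proteins, and Ifit3 belongs to a family that binds viral RNA.

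The letters of the response element are shown first because they mark which of the 9 promoters carry them. The letters GAAA, any 2 bases and GAAA again were searched on both strands from 250 bases before to 50 bases after the start of each RefSeq gene (GRCm38.p6). They were found in 3.44% of all 32851 promoters and in a promoter of 6 of the 9 genes. They were not found in the windows of Ifitm1, Ifitm10 and Irf9. The 30-base windows below are written 5′ to 3′ along the gene, and capitals mark the matching bases, also where matches overlap. Positions count from the RefSeq start. Ifitm3 held its matches just after the start, at 3 to 12 and 20 to 29 (chr7:141010714-141010743, minus strand). The match of Ifitm2 lay at -46 to -37 (chr7:140955988-140956017, minus strand). In Isg15, 3 overlapping matches covered -78 to -57 (chr4:156200871-156200900, minus strand). In Bst2, 2 overlapping matches covered -130 to -115 (chr8:71537580-71537609, minus strand). Stat2 held the reverse letters at -222 to -213 (chr10:128270266-128270295, plus strand). Ifit3 held them at -156 to -147 (chr19:34583363-34583392, plus strand) and at -122 to -113 (chr19:34583397-34583426, plus strand).
Ifitm3: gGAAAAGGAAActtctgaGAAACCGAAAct
Ifitm2: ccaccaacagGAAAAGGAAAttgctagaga
Isg15: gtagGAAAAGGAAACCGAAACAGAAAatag
Bst2: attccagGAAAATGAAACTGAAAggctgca
Stat2: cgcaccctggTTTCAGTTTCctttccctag
Ifit3, farther: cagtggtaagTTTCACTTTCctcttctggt
Ifit3, nearer: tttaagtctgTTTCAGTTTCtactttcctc
Ifitm3 and Ifitm2 both held GAAAAGGAAA. Whether the letters go with the levels given next was not tested.

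Before the values, 2 libraries need naming. Ifitm2, Ifitm3, Bst2 and Isg15 have under 1000 bases of exon, and the libraries of the mSC gate differed from each other by gene length. Among genes with a mean of at least 5 CPM, the 209 with under 1000 bases of exon had a median of -1.06 on the log2 scale in mSC 1 relative to the mean of the other 3 mSC libraries and of 1.13 in mSC 4. For the 6504 genes over 4000 bases the medians were 0.11 in mSC 1 and -0.15 in mSC 4. Libraries mSC 2 and mSC 3 had medians of 0.03 and 0.02 for the short genes, and nmSC 1 one of 0.49. Counts of short genes were thus low in mSC 1 and high in mSC 4, and the results below are given also with this trend removed and without these libraries where that changed a call.

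**Figure D1:**
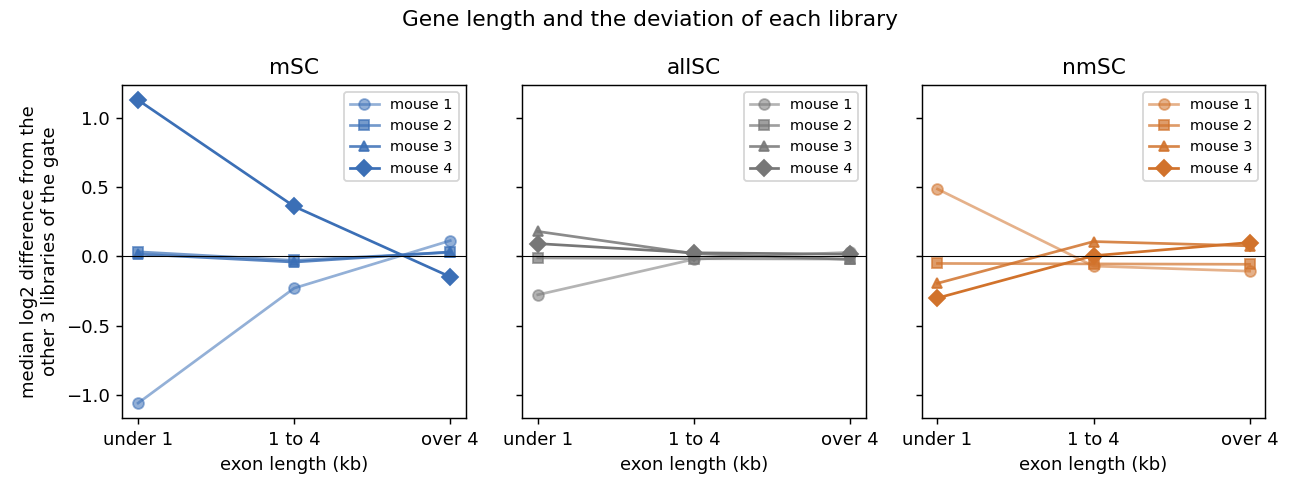
Each line is 1 library, and the vertical axis gives the median log2 difference of its genes from the mean of the other 3 libraries of its gate, for genes with under 1, 1 to 4 and over 4 kb of exon. Library mSC 1 lies at -1.06 and mSC 4 at 1.13 for the shortest genes, and all 12 libraries lie between -0.15 and 0.11 for the longest.

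Ifitm3 (ENSMUSG00000025492, chr7:141009586-141010770, minus strand) was nearly absent from the mSC gate and abundant in the nmSC gate. In mSC it had 0.27, 1.04, 0.93 and 0.87 CPM in mice 1 to 4, which are 4, 12, 12 and 7 reads. In nmSC it had 30.1, 22.7, 17.2 and 19.2 CPM, from 231 to 314 reads. The allSC libraries lay between them with 9.60, 14.5, 12.9 and 12.7 CPM. No library of a gate overlapped another gate, and mSC 1, in which short genes were low, held the fewest reads. The means were 0.779 ± 0.346, 12.4 ± 2.05 and 22.3 ± 5.67 CPM (SD, n = 4), a 28.7-fold ratio of the nmSC mean over the mSC mean, and the log2 fold change was 4.87 (SE 0.297). It ranked 3 of the 18597 genes tested by this fold change. Of all genes tested, 3.93% had their gates apart in this order (mSC below allSC below nmSC in every library). These values chose the gene and are given as a description. The log2 fold change was 4.88 with the length trend removed and 4.52 without mSC 1, the lowest value with any 1 library left out.

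The allSC mean of Ifitm3 lay 0.540 of the way from the mSC mean to the nmSC mean on the linear scale. Within single mice this fraction ran from 0.312 in mouse 1 to 0.731 in mouse 3, each from 1 library per gate. In mouse 1 the short genes were high in nmSC 1, as given above, and low in allSC 1 (a median of -0.28). The fraction rests on the levels that chose the gene and carries no test. None of the 7 other genes tested differed in allSC from the midpoint of its log2 levels in mSC and nmSC by edgeR, where 1.74% of all genes tested did. There were 0 at an unadjusted p under 0.05, beside 7.60% of all genes tested, and 0 by DESeq2. The differences of the 7 genes lay between -0.16 and 0.24 on the log2 scale. The allSC gate takes in the cells of both other gates, and a mix of similar levels lies near their midpoint. For genes with small gate differences the comparison thus had little room to call any. Of all genes tested, 323 were called above the midpoint and 1 below.

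Ifitm2 (ENSMUSG00000060591, chr7:140954837-140955987, minus strand) is the nearest relative of Ifitm3 in the same gene cluster. Since Ifitm3 was chosen by its rise, a difference between the 2 genes is a description and carries no test. In mSC Ifitm2 had 6.17, 18.7, 16.91 and 32.0 CPM in mice 1 to 4. In allSC it had 16.94, 21.3, 23.6 and 21.5 CPM, and in nmSC 42.5, 25.5, 19.0 and 16.1 CPM. The gates overlapped, with the highest mSC library above 3 of the 4 nmSC libraries. The log2 fold change of nmSC over mSC was 0.50 (SE 0.343, adjusted p = 0.250 by edgeR). The lowest and highest mSC libraries were those in which short genes were low and high, respectively. With the length trend within gates removed, the SE fell to 0.167 and the log2 fold change of 0.62 passed the test (adjusted p = 0.00565). With 1 library left out, the value ran from 0.14 without nmSC 1 (adjusted p = 0.757) and 0.18 without mSC 1 (adjusted p = 0.595) to 0.88 without mSC 4 (adjusted p = 0.0250). Without both mSC 1 and mSC 4 it was 0.51 (adjusted p = 0.129). Ifitm2 shares 40.9% of its exon bases with Gm45717 on the same strand, and reads in that stretch cannot be assigned to 1 of them with certainty.

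The ratio of the 2 genes within a library does not depend on the scaling between libraries, and their exon lengths are close, at 655 and 678 bases. Of the summed reads per base of exon of the 7 Ifitm genes, Ifitm3 made up between 2.46% and 4.98% in the mSC libraries. It made up between 32.6% and 38.6% in allSC and between 39.9% and 51.7% in nmSC. Ifitm2 took most of the rest, with 79.4% to 93.4% in mSC against 44.7% to 58.3% in nmSC. The ranges of the 2 genes were far apart in mSC and overlapped in nmSC. In reads not divided by length, Ifitm2 held 91 of 156 in mSC 1, where it was lowest, and 215 of 257, 218 of 266 and 257 of 303 in the other mSC libraries. These shares hold the contrast that chose Ifitm3 and carry no test.

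The other family members were low in every gate. Ifitm1 (ENSMUSG00000025491, chr7:140967221-140969825, plus strand), which acts mostly at the cell surface, had 3, 0, 3 and 4 reads in the mSC libraries, 3, 1, 5 and 2 in allSC and 3, 11, 12 and 8 in nmSC. Ifitm10 (ENSMUSG00000045777, chr7:142325837-142373753, minus strand), a family member outside the cluster, had 0.678, 1.22, 0.853 and 2.12 CPM in mSC and 1.92, 1.87, 2.46 and 2.11 CPM in nmSC. Its log2 fold change was 0.84 (SE 0.386, adjusted p = 0.0887), and with 1 library left out it ran from 0.61 without mSC 1 (adjusted p = 0.225) to 1.20 without mSC 4, its highest mSC library (adjusted p = 0.0223). Both genes lay under a level of 0.619 RPKM (TMM-scaled CPM per kilobase of exon, mean over the 12 libraries), below which 95% of 1511 olfactory and vomeronasal receptor genes lay. Reads on these receptor genes, which Schwann cells are not known to use, rose from 0.207 RPKM in mSC to 0.334 RPKM in nmSC, a log2 ratio of 0.69. The part of such background in the values of Ifitm1 and Ifitm10 was not tested. Of the remaining family genes, Ifitm7 had 1.95 CPM in mSC and 1.92 CPM in nmSC, Ifitm5 had 0.178 and 0.269 CPM, and Ifitm6 had 0.017 and 0.061 CPM.

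**Figure D2:**
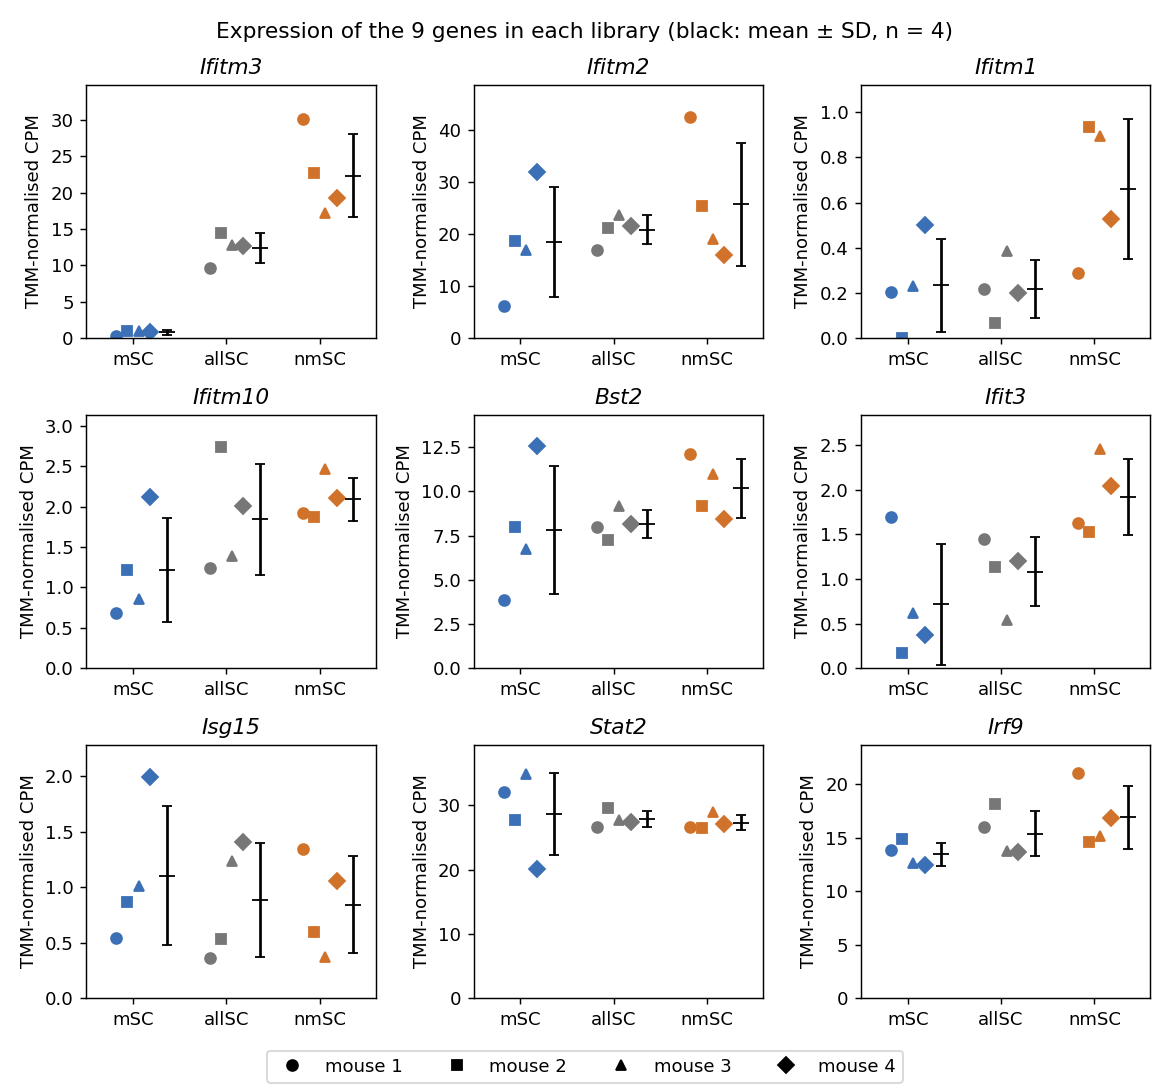
Each panel plots 1 gene, with TMM-normalised CPM on a linear axis from 0 for the 4 libraries of each gate, a symbol for each mouse, and the mean ± SD in black. Ifitm3, which was chosen for this rise, is the only panel in which the gates do not overlap, from at most 1.04 CPM in mSC to at least 17.2 CPM in nmSC.

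Bst2 (ENSMUSG00000046718, chr8:71534255-71537456, minus strand) was expressed in all gates. It had 3.87, 7.99, 6.75 and 12.6 CPM in mSC, 7.999, 7.22, 9.16 and 8.14 CPM in allSC, and 12.1, 9.17, 10.97 and 8.43 CPM in nmSC. The nmSC libraries lay above 3 mSC libraries but not above mSC 4. The log2 fold change was 0.41 (SE 0.255, adjusted p = 0.206 by edgeR). Its exons span 903 bases, and mSC 1 and mSC 4 were again the extremes of their gate. With the length trend removed the log2 fold change was 0.51 (SE 0.158, adjusted p = 0.0145). It was 0.16 without mSC 1 (adjusted p = 0.570), 0.71 without mSC 4 (adjusted p = 0.0145) and 0.45 without both (adjusted p = 0.0981).

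Ifit3 (ENSMUSG00000074896, chr19:34583531-34588731, plus strand) was the one gene of the 7 tested besides Ifitm3 to pass the test between nmSC and mSC, where 40.5% of all genes tested did. It had 25, 2, 8 and 3 reads in the mSC libraries, or 1.70, 0.174, 0.621 and 0.374 CPM. In nmSC it had 17, 18, 33 and 31 reads, or 1.63, 1.53, 2.46 and 2.04 CPM. The mSC library of mouse 1 lay within the nmSC range, and the 3 others lay below it. Its mean over the 12 libraries was 0.710 RPKM, near the olfactory and vomeronasal receptor level of 0.619 RPKM. Its mSC mean of 0.410 RPKM lay under that level. Reads on those receptor genes rose by 0.69 on the log2 scale, and the part of such background in Ifit3 was not tested. The log2 fold change was 1.34 (SE 0.502, adjusted p = 0.0407 by edgeR). The call held in 3 of the 12 fits with 1 library left out, those without allSC 1, allSC 3 or mSC 1, and in the last the log2 fold change was 2.24 (adjusted p = 0.00161). In the other 9 it fell short, with adjusted p-values of up to 0.116. It was also lost with the length trend removed (1.23, adjusted p = 0.0834), with DESeq2 size factors (1.26, adjusted p = 0.0505) and in a model of only these 2 gates (1.323, adjusted p = 0.0604). Ifit3 shares 23.4% of its stretches of the read length with its near copy Ifit3b, so that part of its reads could belong to either gene.

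Isg15 (ENSMUSG00000035692, chr4:156199424-156200818, minus strand) was low in all gates and did not separate them. It had 0.543, 0.868, 1.01 and 1.99 CPM in mSC, 0.364, 0.535, 1.23 and 1.41 CPM in allSC, and 1.34, 0.595, 0.373 and 1.05 CPM in nmSC, from 5 to 16 reads per library. The log2 fold change was -0.34 with a 95% interval from -1.40 to 0.72 (adjusted p = 0.626 by edgeR). The interval leaves out a rise by 1 on the log2 scale but not a fall by 1.

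Stat2 (ENSMUSG00000040033, chr10:128270559-128292849, plus strand) and Irf9 (ENSMUSG00000002325, chr14:55603571-55610030, plus strand), partners in the interferon-activated complex, had similar levels in the gates. Stat2 had 32.0, 27.7, 34.8 and 20.1 CPM in mSC and 26.7, 26.4, 29.0 and 27.1 CPM in nmSC. The mSC libraries lay on both sides of the nmSC libraries, and the log2 fold change was -0.08 with a 95% interval from -0.37 to 0.22 (adjusted p = 0.702). Irf9 had 13.8, 14.8, 12.6 and 12.5 CPM in mSC and 21.1, 14.6, 15.2 and 16.86 CPM in nmSC. Its log2 fold change was 0.33 with a 95% interval from 0.02 to 0.64 (adjusted p = 0.106). For both genes the interval leaves out a change by 1 on the log2 scale in either direction. Scaling by library size alone, which moved the median of all genes from 0.16 to 0.73, brought Irf9 to 0.89 (adjusted p = 0.000353) and Stat2 to 0.47 (adjusted p = 0.0198). Under it Ifitm2, Bst2 and Ifitm10 also passed, at 1.12, 0.997 and 1.41 (adjusted p = 0.0110, 0.00232 and 0.00415). Relative to the median of all genes Irf9 stayed at 0.17.

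Between allSC and mSC, none of the 7 genes other than Ifitm3 was called by edgeR, beside 17.6% of all genes tested. There were 0 at an unadjusted p under 0.05, beside 31.3%, and 0 by DESeq2. Between allSC and nmSC the counts were also 0, 0 and 0, beside 10.4% called and 21.3% at an unadjusted p under 0.05. The log2 fold changes of the 7 genes lay between -0.29 and 0.66 in the first and between -0.82 and 0.05 in the second comparison. The same libraries enter both, and for Ifitm3 the values were 4.03 and -0.84. Differences between the 4 mice, over all gates, were found for none of the 8 genes by edgeR (adjusted p = 0.997 for each). For the 7 genes other than Ifitm3, 0 had an unadjusted p under 0.05, beside 3.55% of all genes tested. DESeq2 called 0 of the 7, and edgeR called 0.0538% of all genes tested.

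**Figure D3:**
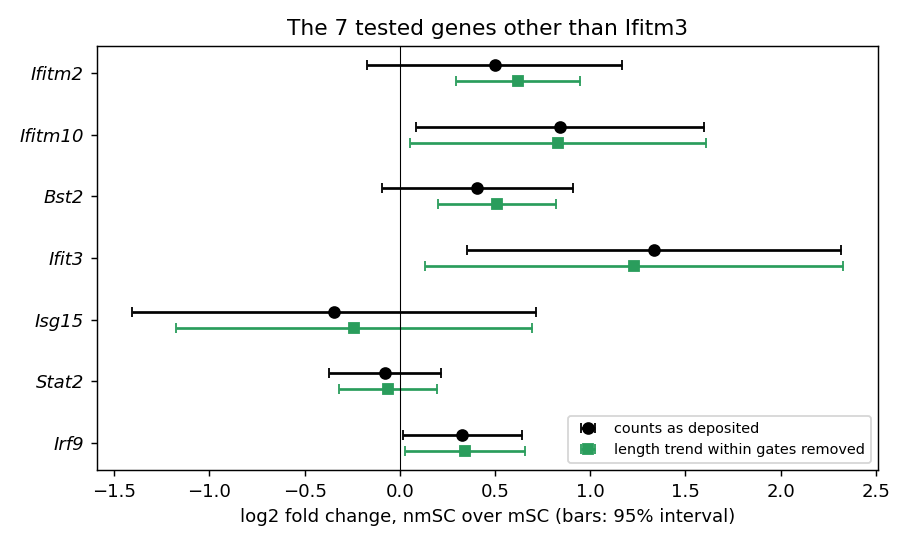
Points give the log2 fold change of nmSC over mSC for the 7 genes tested other than Ifitm3, and bars an approximate 95% interval (1.96 SE), from the counts as deposited (black circles) and with the length trend within gates removed (green squares). Removing the trend shortened the bars of Ifitm2 and Bst2, which then lie above 0, and left the values of Stat2 and Irf9 nearly in place.

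Per length of exon, the order of the genes differed between the gates. In nmSC, Ifitm2 had 39.4 ± 18.1 RPKM and Ifitm3 32.9 ± 8.37 RPKM (SD, n = 4), values within their spread. Bst2 followed with 11.3 ± 1.85 RPKM, Stat2 with 4.60 ± 0.195 RPKM and Irf9 with 3.14 ± 0.547 RPKM. Isg15 and Ifit3 were alike at 1.11 ± 0.580 and 1.098 ± 0.245 RPKM, and Ifitm1 and Ifitm10 came last with 0.604 ± 0.283 and 0.436 ± 0.0563 RPKM. In mSC, Ifitm2 was again first with 28.2 ± 16.2 RPKM and Bst2 second with 8.64 ± 4.02 RPKM. There Ifitm3, at 1.15 ± 0.510 RPKM, lay below Stat2 (4.83 ± 1.09 RPKM) and Irf9 (2.50 ± 0.207 RPKM) and next to Isg15 (1.46 ± 0.827 RPKM). The order depends on the length used. With the mean transcript length in place of all exon bases, Bst2 (16.89 RPKM) and Stat2 (15.3 RPKM) were alike in nmSC, Irf9 had 8.63 RPKM, and Ifitm10 (1.09 RPKM) and Ifitm1 (0.911 RPKM) lay near Isg15 and Ifit3.

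The rest of the pathway was read from a list of 150 genes by role. Without the 9 genes it held 141, of which 113 were tested. In nmSC against mSC, 50 of the 113 were higher (44.2%, beside 20.1% of all genes tested) and 5 were lower (20.4% of all genes tested were lower). The median log2 fold change was 0.74, against 0.16 over all genes tested. Low genes tended to higher values in nmSC. Among the 62 listed genes above the level of the receptor genes, 30 were higher and 5 were lower. Of all 12382 genes tested above that level, 2042 (16.5%) were higher and 3750 were lower. The medians were 0.55 for the listed genes and -0.12 for all genes above that level. The blocked fit by mouse number kept the counts of listed genes within 1.5 times.

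Of the 6 receptor and 4 signalling genes tested besides the genes described above, 0 were higher in nmSC, beside 20.1% of all genes tested. These are too few genes for a count of 0 to set them apart from that share. None of the 10 interferon genes of the list, among them Ifnb1 and Ifng, passed the filter on low counts. Of the 6 receptor genes, 1 was lower, beside 20.4% of all genes tested. That gene was Il10rb, a chain of the interferon lambda and interleukin-10 receptors, which fell from 75.9 ± 6.42 to 57.4 ± 5.18 CPM (log2 fold change -0.40, adjusted p = 0.0147). Among the signalling genes, Jak2, a kinase of the gamma receptor, fell from 32.8 ± 7.33 to 19.4 ± 3.48 CPM (log2 fold change -0.77, adjusted p = 0.00135). Scaling by library size alone turned the log2 fold change of Il10rb to 0.16 and left 0 lower genes in the list, and without both mSC 1 and mSC 4 Il10rb did not pass (adjusted p = 0.0680). Among 6 inhibitors, Usp18, which removes Isg15 from proteins and damps the type I receptor, fell from 6.70 ± 2.17 to 3.29 ± 0.633 CPM (log2 fold change -1.02, adjusted p = 0.00275), a call lost under library size (-0.45, adjusted p = 0.106). Mavs, the mitochondrial adaptor of RNA sensors, was also lower, at 74.0 and 54.6 CPM (log2 fold change -0.44, adjusted p = 0.0274), and is named after its value was seen.

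Among interferon regulatory factors and sensors, 5 genes each were higher in nmSC. Irf1, a transcription factor that interferon gamma induces, rose from 31.5 ± 8.04 CPM in mSC through 127 ± 31.3 CPM in allSC to 199 ± 14.4 CPM in nmSC (log2 fold change 2.65, adjusted p = 8.48e-10). Of the 8 tested regulatory factors outside the 9 genes, 5 rose and 0 fell, beside 20.1% and 20.4% of all genes tested. Irf2, which competes with Irf1 for its sites, rose by 1.30 on the log2 scale (adjusted p = 2.27e-05). Of 11 sensing genes, 5 rose, Mavs fell and 5 did not pass the test. Those that rose include Mb21d1, the DNA sensor cGAS (3.04), Ifih1 and Ddx58, which sense RNA in the cytoplasm (1.70 and 1.47), and Tlr3, which senses it in endosomes (1.01). Their adjusted p-values were 1.88e-05, 1.83e-05, 3.46e-05 and 0.00233.

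Among interferon-stimulated effectors outside the 9 genes, 32 of 63 tested rose and 0 fell, beside 20.1% and 20.4% of all genes tested. Parp14, an ADP-ribosyltransferase, rose from 13.2 ± 5.23 to 86.3 ± 6.40 CPM (log2 fold change 2.70, adjusted p = 3.80e-09). Cxcl10, a chemokine for T cells, rose from 7.21 ± 2.84 to 39.0 ± 11.2 CPM (2.46, adjusted p = 9.56e-08). Ube2l6 and Uba7, the enzymes that carry Isg15 to its targets, rose from 4.25 to 23.7 CPM (2.49, adjusted p = 1.48e-09) and from 1.96 to 9.94 CPM (2.34, adjusted p = 1.11e-07). Isg15 itself had 1.103 CPM in mSC and 0.841 CPM in nmSC.

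The GTPases that interferon gamma induces were higher in nmSC for the most part. Of 13 tested, 8 rose and 0 fell, beside 20.1% and 20.4% of all genes tested, with a median log2 fold change of 2.10. All 6 above the level of the receptor genes rose, beside 16.5% of all genes above it. Gbp2 rose from 0.853 to 7.80 CPM (log2 fold change 3.14, adjusted p = 1.23e-07) and Gbp7 from 2.39 to 16.0 CPM (2.74, adjusted p = 2.11e-09), both guanylate-binding proteins that attack pathogen vacuoles. Igtp and Irgm1, immunity-related GTPases, rose by 2.54 and 2.41 on the log2 scale (adjusted p = 3.61e-05 and 4.35e-06). Of 2 tested relatives of the Ifitm family in the wider dispanin family, Prrt2, a presynaptic protein, rose by 0.57 on the log2 scale (adjusted p = 0.0323), a call kept in 7 of 12 such fits and lost without mSC 1, mSC 3, nmSC 1, nmSC 3 or nmSC 4 (adjusted p-values of up to 0.0919). It was also lost with DESeq2 size factors, without a filter on low counts and without both mSC 1 and mSC 4 (adjusted p = 0.0686, 0.0511 and 0.0933).

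The letters of the response element were frequent in these groups. They stood in a promoter of 45.0% of 60 effector genes and 90.0% of 10 GTPase genes with an entry, beside 3.99% of all 27025 genes. Among tested pathway genes outside the 9, 17 of 32 with the letters were higher in nmSC (53.1%) and 22 of 54 without them (40.7%). Over all tested genes with an entry the shares were 23.4% with and 19.98% without. These are descriptions of letters in a window, not of binding.

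On chromosome 7, the neighbours of Ifitm3 were read beside it, without a comparison to its own rise, which chose it. Within 100 kb of its start the annotation places 16 genes, of which 13 were in the count table and 6 besides Ifitm3 were tested. Of these, 2 were higher in nmSC and 0 lower, where 20.1% and 20.4% of all genes tested were. Their log2 fold changes lay between 0.50 and 1.72, beside a median of 0.16 over all genes tested. Pgghg, a glycosylhydrolase gene that starts at -69.4 kb along the chromosome, had means of 15.3 CPM in mSC and 21.8 CPM in nmSC (log2 fold change 0.51, adjusted p = 0.0459). Ano9, whose body reaches into the window, had 0.424 and 1.36 CPM (1.72, adjusted p = 0.0230), and both are named after their values were seen. Ifitm6, the nearest gene to Ifitm3 by start at 7.15 kb, had at most 0.061 CPM on average in any gate. Ifitm1 and Ifitm2 start at -43.5 and -54.8 kb.

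**Figure D4:**
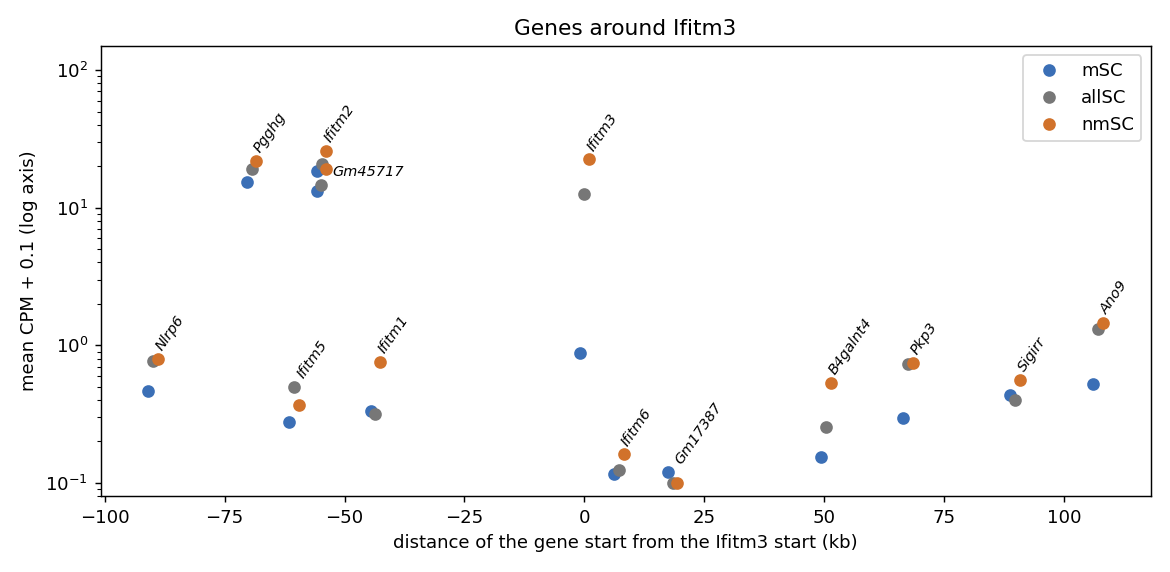
Mean CPM plus 0.1 on a log axis in each gate for the listed genes around Ifitm3, by the distance of their starts from its start in kb. Ifitm3, which was chosen for its rise, lies at a mean of 0.779 CPM in mSC and 22.3 CPM in nmSC before the 0.1 is added. Ifitm2 and Pgghg have all 3 gates within a narrow range.

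The genes whose profile over the 12 libraries was nearest to that of Ifitm3 were sought among 9400 genes with a mean of at least 10 CPM by the root mean square difference of centred log2(CPM + 1) values. They were Egr3 (0.244), Casp12 (0.249), Ptn (0.281), Ccdc80 (0.301) and 1500015O10Rik (0.318). Egr3, a transcription factor of the early growth response family, had 4.99 ± 1.14 CPM in mSC, 43.9 ± 7.30 CPM in allSC and 82.7 ± 13.6 CPM in nmSC. Ptn, a secreted growth factor, had 10.99 ± 3.11, 95.4 ± 15.2 and 163 ± 19.5 CPM. None of the 5 is an interferon pathway gene of the list. With a pseudocount of 0.1 CPM, 0 of the 5 stayed among the nearest, which were then Rxrg, Smim5, Scn7a, Ltbp4 and Lgr5, so the names rest on how the low mSC values were weighted.

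Ifitm3 and several effectors are also made by immune, endothelial and fibroblast-like cells, and markers of these were read beside it. The 14 immune markers had a summed level from 19.2 to 29.6 CPM across the mSC libraries, and from 26.5 to 38.2 CPM across the nmSC libraries. Of 8 tested, 2 were higher in nmSC and 0 lower, beside 20.1% of all genes tested that were higher. The median log2 fold change of the 8 was 0.57. Cd68, a lysosomal protein of macrophages, rose from 0.911 to 2.30 CPM (log2 fold change 1.34, adjusted p = 0.0126) and Itgam, an integrin of myeloid cells, from 0.805 to 2.14 CPM (1.34, adjusted p = 0.0185). Ptprc, the pan-leukocyte antigen CD45, had 5.67 and 8.80 CPM (adjusted p = 0.0566), and Cd52 had at most 3 counts in every library. The 8 endothelial markers ranged from 53.5 to 73.8 CPM in sum for mSC, and from 18.1 to 33.2 CPM for nmSC, with 2 higher and 2 lower of 7 tested and a median log2 fold change of 0.95. Most of the sum came from the 2 that fell, Kdr (20.3 to 5.88 CPM) and Egfl7 (35.6 to 9.25 CPM), while Pecam1 and Flt1 rose by 0.95 and 1.25 on the log2 scale (adjusted p = 0.0428 and 0.00534). The 9 fibroblast-like markers reached a sum of 437 to 1034 CPM in mSC against 2926 to 4105 CPM in nmSC, almost all of it Col1a1. Without Col1a1, which was set apart after its value was seen, the sums ran from 14.8 to 45.5 CPM in mSC, against 16.2 to 23.1 CPM in nmSC. Of 7 tested fibroblast-like markers, 2 were higher and 0 lower, with a median of 0.56. Besides Col1a1, Sfrp2 rose from 0.428 to 1.70 CPM (log2 fold change 1.89, adjusted p = 0.00933), and Pdgfra, a defining fibroblast marker, had 2.34 and 2.35 CPM. These genes are named after their values were seen. Of 4 tested perineurial markers, 2 were higher and 1 lower, with a median of 0.73 and mean sums of 195 CPM in mSC and 268 CPM in nmSC. Of 7 tested markers of pericytes and smooth muscle cells, 1 was higher and 2 were lower, with a median of 0.39. Their mean sums were 161 CPM in mSC and 75.2 CPM in nmSC. Of the markers named here, Ptprc, Itgam, Cd52, Pecam1, Flt1, Sfrp2 and Pdgfra lay under the olfactory and vomeronasal receptor level of 0.619 RPKM. Cd68, Kdr, Egfl7 and Col1a1 lay above it. Reads on those receptor genes rose by 0.69 on the log2 scale from mSC to nmSC. The part of such background in the markers was not tested. Nor was the part of any of these cells in the values of Ifitm3 and of the effectors.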

How the data were processed

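RNA of sorted Schwann cells was sequenced by Smart-Seq2 (12 libraries, 4 per gate). Per the paper's methods and the submitters' notes, adapter trimming was followed by alignment in STAR 2.6.1c and by counting in featureCounts, and the raw counts were deposited. The submitters' processing notes name GRCm38.p5, the methods a human build, and the identifiers are those of mouse. Strand and multi-mapping options are not given in the sources used here. Annotation came from GENCODE M21 (GRCm38), which matched 25664 of 25700 identifiers.

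The deposited counts were filtered by expression in the gates, scaled by TMM and tested with the quasi-likelihood test of edgeR 4.0.16 in R 4.3.3, in 1 model of 12 libraries, with Benjamini-Hochberg adjustment over 18597 genes and a threshold of 0.05. DESeq2 1.42.0 was an alternative. The steps were tested on simulated data. The members, the pathway list, the marker lists and the rule for named genes (up to 4 called genes with the largest change in each group of the list, at 2 CPM or more) were chosen with earlier results of these data known. The removal of the trend of each library against gene length, by an edgeR offset estimated within gates, and the joint removal of mSC 1 and mSC 4 were chosen after seeing the data. The error of the offset is not in the test.

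The titles give each library a number that recurs in each gate, read here as the number of its mouse, which pairs the gates. Deviations of same-numbered libraries from their gate means had a mean correlation of 0.032 (from -0.225 to 0.246, 12 pairs), and those of different numbers one of -0.0108 (36 pairs). No pair of libraries was a duplicate (chi-square per degree of freedom at least 4.03). The smallest level seen, 3 counts, was between 0.177 and 0.367 CPM. This floor covers counting error only, since PCR copies are not independent molecules. Sex is not in the labels and was not used. Some genes that the rule names are not reported here.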

Additional observations from a re-analysis of the deposited data

How the results depend on the processing

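Scaling had the largest effect. Scaling by library size alone moved the median log2 fold change of nmSC over mSC of all genes from 0.16 to 0.73, and leaving out the 50 genes with the most counts moved it to 0.53. Under library size, 11840 genes were called between nmSC and mSC and 2938 between allSC and nmSC, and the pathway list had 90 genes higher and 0 lower. Without the top 50 genes the list had 77 higher and 1 lower. Stat2 turned to 0.47 and 0.28 and Isg15 to 0.24 and 0.032 under these scalings, and Il10rb to 0.16 under library size. Calls were gained under both for Ifitm2 (1.12 and 0.90), Ifitm10 (1.41 and 1.20), Bst2 (0.997 and 0.79) and Irf9 (0.89 and 0.69), none of which passed in the reported fit. Relative to the median of all genes, Stat2 lay at -0.24 in the reported fit and at -0.25 under library size. A model of only the gates compared called 2899 genes between allSC and nmSC, and without both mSC 1 and mSC 4 the count was 2938. Differences between mice were called for 40 genes by DESeq2 and for 20 without a filter. Above the receptor level 30 of 62 listed genes were higher in the reported fit, beside 16.5% of all genes above it. Within mouse 1 the position of Ifitm3 in allSC was 0.312 and within mouse 3 it was 0.731, and 0 of its 5 nearest genes were shared with another pseudocount. Leaving out 1 library at a time gave between -0.21 and 0.018 for Stat2 and between -0.64 and 0.053 for Isg15.

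With the mouse number as a replicate block, 7170 genes were called between nmSC and mSC, Ifit3 had a log2 fold change of 1.54 (adjusted p = 0.0288), and no call of the 9 genes changed. Genes at or under 3 counts cannot be compared at this depth. The causes of these changes were not tested.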
